A study of Danio rerio with 6 samples.

Results

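A set of 10 genes that encode RNA-binding proteins or their partners in the translational control of oocyte mRNAs was followed in zebrafish ovaries: zar1, zar1l, cpeb1b, igf2bp3, ybx1, patl2, lsm14b, btg4, eif4e1b and ddx6. They were chosen by symbol. All 10 were found among the 32519 genes of the deposited table, and all 10 were among the 19353 genes that passed the filter on low counts. For 9 genes the symbol matched exactly, and cpeb1b was taken as the gene with the symbol CPEB1 (ENSDARG00000008454), which stands in the table beside a separate cpeb1a. Of the 10 genes, igf2bp3 was lower in the mutant ovaries and passed the test. The other 9 did not pass it, although cpeb1b and btg4 were lower in each mutant library than in any WT library. With igf2bp3, 30% of the 10 genes did not overlap between the genotypes, near the 28.4% of all genes tested.

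The libraries came from ovaries of 3 WT and 3 ddx4-E4Δ replicates at 6 months post-fertilization (mpf). The ddx4-E4Δ genotype, also called the ddx4-L mutant, is 1 line with a short deletion in the alternative exon of ddx4 that marks the ovary-biased long transcript ddx4-L, and the short transcript ddx4-S remains. Counts per gene do not tell these transcripts apart, so the genotype could not be checked from ddx4 itself, which had a log2 fold change of 0.13 (edgeR adjusted p = 0.47). Values are given as CPM, estimated counts scaled by library size and TMM factor, always in the order of replicates 1, 2 and 3. Differences are log2 fold changes of mutant against WT with their standard error (SE), and a gene was called at an adjusted p under 0.05 over all genes tested. Called genes with a log2 fold change of 1 or more in size, in either direction, are named differentially expressed genes (DEGs). Whether replicates were single or pooled fish is not given in the sources used here, so p-values measure the spread between these libraries.

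Growing oocytes fill with mRNAs that are made early, kept silent with short poly(A) tails and translated only when meiosis resumes or after fertilization. In frog oocytes the protein CPEB1 marks such mRNAs through an element near their end and, with the helicase DDX6, LSM14 and PATL proteins and a germline form of the cap-binding protein eIF4E, keeps them from the ribosome. Y-box and IGF2BP proteins package and protect mRNAs, ZAR proteins bind and store them, and in mouse BTG4 brings the deadenylase that clears them once the egg has formed. In bulk samples, fewer cells of a type and less RNA per cell cannot be told apart.

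The column totals ran from 76520483 to 86263179, and TMM factors lay between 0.968 and 1.08. Of the 10 genes, ddx6 rested on 682 to 1196 estimated counts per library and the other 9 on 6028 to 99362, on a scale where 4 was the commonest nonzero value. Together they held 0.529% to 0.542% of the counts of a WT library and 0.501% to 0.547% of those of a mutant library. Among marker lists for the cells of the ovary, 11 early germ cell genes summed to 45.5 to 54.2 CPM in WT libraries and 22.9 to 27.1 CPM in mutant libraries, with 2 of them at 0 in each library. The lower sum rested on the called meiotic genes sycp1 (log2 fold change -4.67, edgeR adjusted p = 0.000147) and stag3 (-1.35, 0.028). The other 9 genes summed to 7.75 to 11.0 CPM and 15.7 to 16.5 CPM, higher in each mutant library. This higher sum rested on spo11, the most abundant of these 9, at a mean of 4.83 CPM in WT and 13.3 CPM in mutant libraries. Without spo11 as well, the sums of the genotypes overlapped. Singly, 6 of the 8 tested genes were lower and 2 higher. Besides the called genes, sycp3 (-3.45, edgeR adjusted p = 0.12) and smc1b (-1.26, 0.17) were lower in each mutant library than in any WT library. Both rested on few counts. WT and mutant means were 0.75 and 0.067 CPM for sycp3 and 1.23 and 0.51 CPM for smc1b. The 16 granulosa and theca genes summed to 286 to 335 CPM and 225 to 253 CPM, which rested on 1 called gene, the steroidogenic cyp11a1 (ENSDARG00000002347, -0.71, edgeR adjusted p = 0.017). The other 15 genes had a higher sum in the mutant, 75.7 to 103 CPM in WT libraries and 106 to 121 CPM in mutant libraries. That higher sum rested on cyp17a1, the most abundant of these 15, at a mean of 60.0 CPM in WT and 84.6 CPM in mutant libraries. Without cyp17a1 as well, the sums overlapped. Singly, 10 of the 16 genes had a negative log2 fold change and 6 a positive one. The 11 oocyte genes, none at 0, overlapped in their sum, at 16406 to 17374 CPM and 15376 to 20400.1 CPM, most of it from the egg coat genes zp2.1, zp3 and zp3b. Singly, the oocyte growth factor gene gdf9 was called as lower (-0.82, edgeR adjusted p = 0.0064). No overlap was found for 4 of the 11, zp3 as higher and gdf9, buc and piwil1 as lower. That is 36.4%, beside 28.4% of all genes tested. Lists for stroma, blood, immune cells and endothelium overlapped in their sums as well. Singly, 8 of 10 stroma genes and all 6 immune genes had a positive log2 fold change, at medians of 1.13 and 0.99. Of the blood genes 2 were positive and 3 negative, and of the endothelium genes 1 and 3. None of these genes was called. Mutant replicate 1 had the highest stroma sum, 204 CPM against 34.2 to 111 CPM in the 5 other libraries, and the highest immune sum, 107 CPM. Mutant replicate 3 had an immune sum of 98.9 CPM and mutant replicate 2 one of 32.7 CPM, beside 21.0 to 70.2 CPM in WT libraries.

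**Figure D1:**
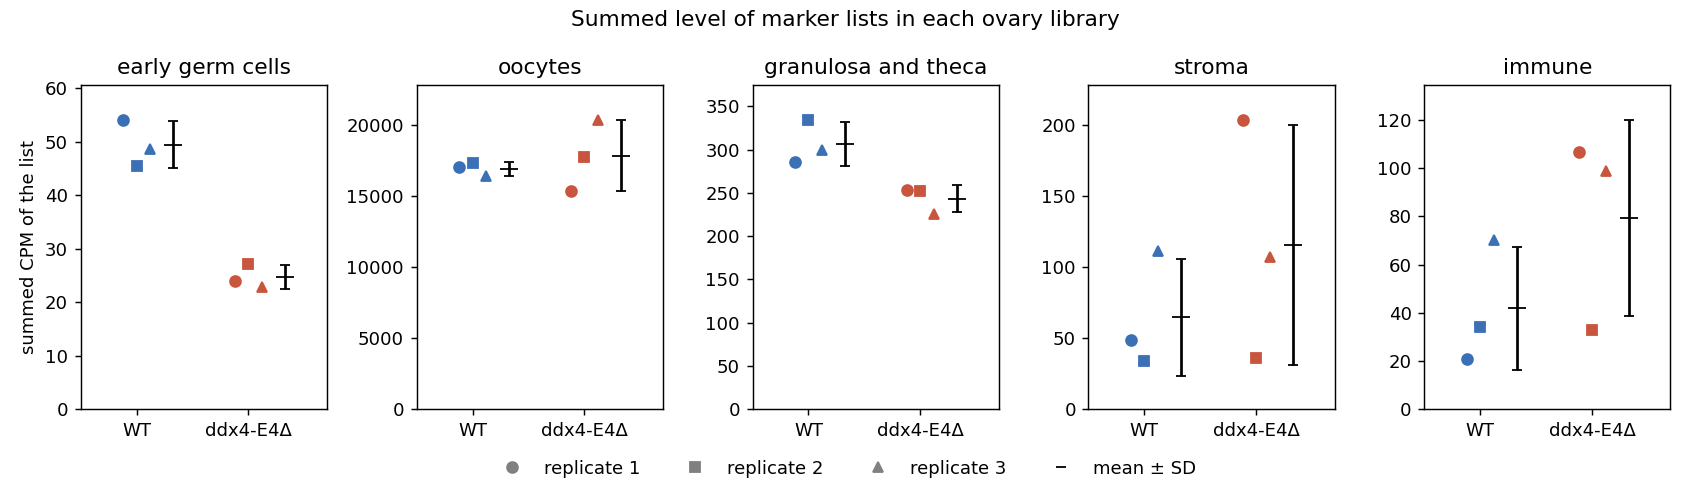
Summed CPM of 5 marker lists (y axis, linear, from 0) in each library of WT (blue) and ddx4-E4Δ (red) ovaries, with a marker shape per replicate and the mean ± SD of 3 libraries in black. The early germ cell and the granulosa and theca sums are lower in the mutant without overlap, through sycp1 and stag3 and through cyp11a1. Without these genes each sum is higher in the mutant, through spo11 and through cyp17a1. Mutant replicate 1 has the highest stroma sum, 204 CPM.

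The gene igf2bp3 (ENSDARG00000010266), which RefSeq also lists as zVg1RBP, encodes an insulin-like growth factor 2 mRNA-binding protein that binds and stabilizes maternal mRNAs. WT libraries held 116, 126 and 114 CPM of igf2bp3, and mutant libraries held 85.8, 85.6 and 76.0 CPM. Every mutant library lay below every WT library, and the spread within each genotype was narrow beside the gap. From 119 ± 6.57 CPM in WT ovaries it fell to 82.5 ± 5.58 CPM (SD, n = 3 each), a log2 fold change of -0.52 (SE 0.086, 95% confidence interval -0.73 to -0.32, edgeR adjusted p = 0.020).

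Thus 1 of the 10 genes was called, as lower, and 0 as higher. Of all genes tested, 4.57% were called, 2.61% as lower and 1.96% as higher. With the replicate number as a block, 1.68% of all genes and 0 of the 10 were called, igf2bp3 having an edgeR adjusted p of 0.0622. Its call was also lost with 5 of the 6 libraries left out in turn, namely WT replicate 1 (edgeR adjusted p = 0.0657), 2 (0.0700) or 3 (0.0572) and mutant replicate 1 (0.0514) or 2 (0.0565), while its log2 fold change stayed between -0.56 and -0.47. The marker genes sycp1, stag3, gdf9 and cyp11a1 were also lower in each mutant library. The summed rest of the early germ cell and of the granulosa and theca lists was higher, through spo11 and through cyp17a1. Singly, 6 of 8 tested early germ cell genes and 10 of 16 granulosa and theca genes had a negative log2 fold change. Of the 11 oocyte genes, 5 had a negative and 6 a positive one, and their sum overlapped between the genotypes. The part of cell makeup in the difference of igf2bp3 was not tested.

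**Figure D2:**
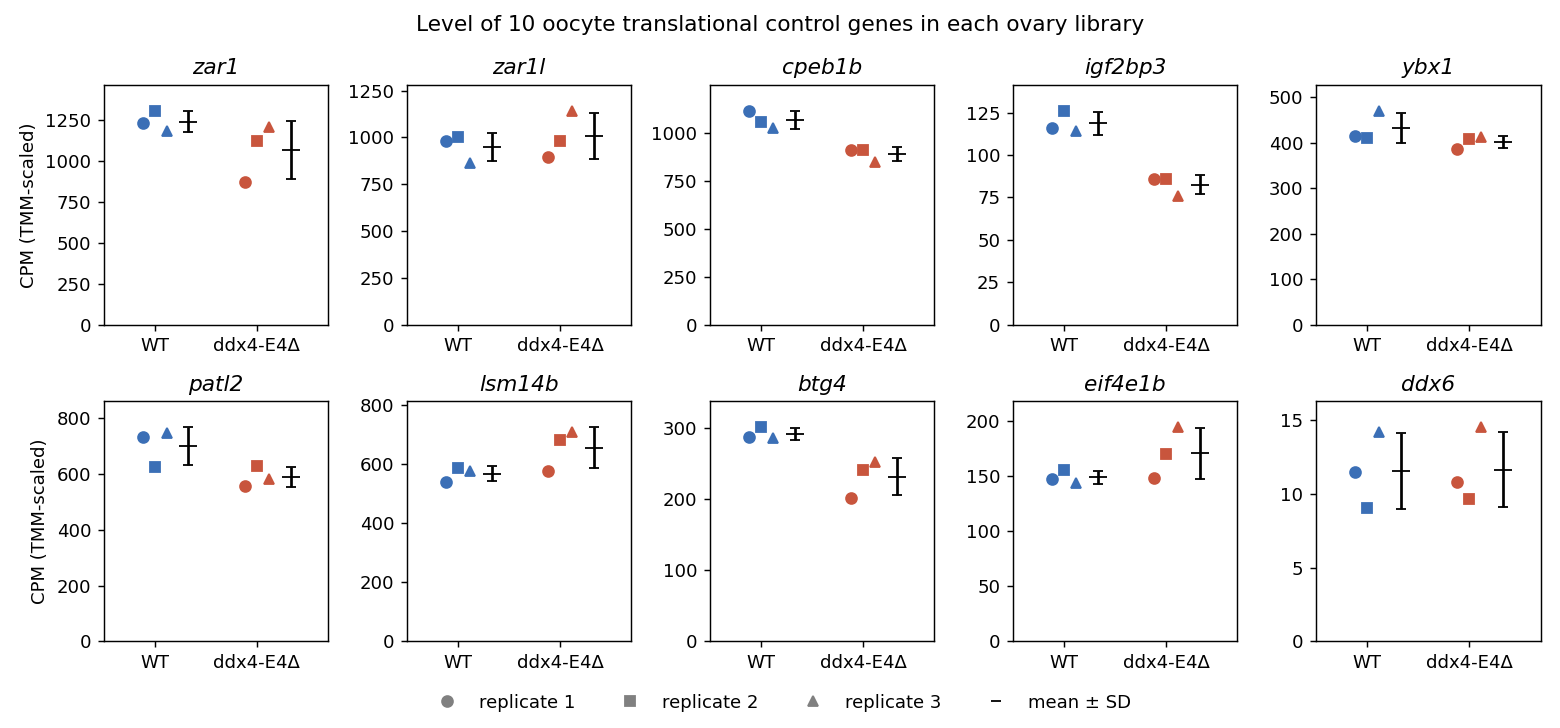
CPM after TMM scaling (y axis, linear, from 0) of the 10 genes in each library of WT (blue) and ddx4-E4Δ (red) ovaries, with a marker shape per replicate and the mean ± SD of 3 libraries in black. The genotypes are apart in igf2bp3, cpeb1b and btg4 and overlap in the other genes.

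None of the 10 was a DEG, where 3.11% of all genes were. An unadjusted p under 0.05 in edgeR was found for 3 genes, igf2bp3, btg4 and cpeb1b, and for 19.9% of all genes. These 3 were also the genes whose CPM did not overlap between the genotypes, all as lower, where 28.4% of all genes did not overlap, 14% as lower and 14.3% as higher. DESeq2 called the same 3 genes as lower, and called 12% of all genes, 6.36% as lower and 5.65% as higher. The share of the 10 genes without overlap, 30%, was near that of the whole table. Their median log2 fold change was -0.16, beside 0.014 over all genes, with 6 genes lower and 4 higher, or 7 and 3 with upper-quartile scaling, where ddx6 turned to -0.0087.

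The gene btg4 (ENSDARG00000035171) encodes the adaptor that in mouse eggs recruits the CCR4-NOT deadenylase to maternal mRNAs. WT libraries held 287, 301 and 285 CPM of btg4, and mutant libraries held 201, 241 and 252 CPM. All mutant libraries were below WT, replicate 1 by the widest gap. The means of 291 ± 8.53 and 231 ± 26.6 CPM (SD, n = 3 each) gave a log2 fold change of -0.33 (SE 0.10, 95% confidence interval -0.57 to -0.09), which did not pass the test (edgeR adjusted p = 0.13) but did with DESeq2 (adjusted p = 0.0485). Without mutant replicate 1, the log2 fold change of btg4 was -0.24 (edgeR adjusted p = 0.18).

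The gene cpeb1b (CPEB1), known as zorba in zebrafish, encodes the protein that binds the cytoplasmic polyadenylation element. WT libraries held 1115, 1055 and 1025 CPM of cpeb1b, and mutant libraries held 908, 911 and 846 CPM. The mutant libraries lay close together and all below WT. The means were 1065 ± 46.2 and 888 ± 36.8 CPM (SD, n = 3 each), and the log2 fold change of -0.26 (SE 0.093, 95% confidence interval -0.48 to -0.05) did not pass the test (edgeR adjusted p = 0.17), while the DESeq2 adjusted p was 0.0202.

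The partners of CPEB1 in the repressed complex differed in the sign of their log2 fold change, and none of them passed the test. The gene patl2 (ENSDARG00000089567) encodes an oocyte form of the decapping activator Pat1. WT libraries held 733, 624 and 747 CPM of patl2, and mutant libraries held 559, 629 and 584 CPM. WT replicate 2 lay among the mutant libraries, and the other two WT libraries lay above them all. For patl2 the log2 fold change was -0.25 (SE 0.11, 95% confidence interval -0.50 to 0.0015, edgeR adjusted p = 0.25).

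An Sm-like protein of stored mRNA particles is encoded by lsm14b (ENSDARG00000025386). WT libraries held 539.8, 588 and 576 CPM of lsm14b, and mutant libraries held 578, 682 and 709 CPM. Mutant replicates 2 and 3 lay above all WT libraries and replicate 1 among them. This gave lsm14b a log2 fold change of 0.21 (SE 0.11, 95% confidence interval -0.04 to 0.46, edgeR adjusted p = 0.33).

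The germline cap-binding protein is encoded by eif4e1b (ENSDARG00000014565), with 147, 155 and 144 CPM in WT libraries and 148, 170.1 and 194 CPM in mutant libraries. As for lsm14b, mutant replicate 1 was within the WT range and the other two were above it. Its log2 fold change was 0.20 (SE 0.11, 95% confidence interval -0.06 to 0.46, edgeR adjusted p = 0.37).

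The DEAD-box helicase gene ddx6 (ENSDARG00000061338) had 11.5, 9.03 and 14.2 CPM in WT libraries and 10.8, 9.64 and 14.5 CPM in mutant libraries. Both genotypes of ddx6 covered nearly the same range, with replicate 2 lowest and replicate 3 highest in each. Its log2 fold change of 0.01 (SE 0.24, edgeR adjusted p = 0.99) had the widest interval of the 10 genes, -0.56 to 0.58, so a difference of the size seen for igf2bp3 was within it.

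The paralogs zar1 (ENSDARG00000019706) and zar1l (ENSDARG00000055973) encode zinc finger proteins that bind mRNAs in oocytes, and zebrafish need zar1 for oogenesis. WT libraries held 1230.2, 1305 and 1179 CPM of zar1, and mutant libraries held 868, 1119 and 1205 CPM. Mutant replicate 1 was far below WT, replicate 2 slightly below and replicate 3 inside the WT range. The means were 1238 ± 63.3 and 1064 ± 175 CPM (SD, n = 3 each), and the log2 fold change of -0.22 (SE 0.14, 95% confidence interval -0.54 to 0.11, edgeR adjusted p = 0.44) was -0.09 without mutant replicate 1 (edgeR adjusted p = 0.64).

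For zar1l, WT libraries held 983, 1004 and 862 CPM and mutant libraries 898, 982 and 1143 CPM. Only mutant replicate 3 left the WT range of zar1l. The log2 fold change was 0.09 (SE 0.12, 95% confidence interval -0.20 to 0.38, edgeR adjusted p = 0.75), and without that library it was -0.014.

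The Y-box gene ybx1 (ENSDARG00000004757), whose protein represses maternal mRNAs in zebrafish, had 414, 411 and 470.2 CPM in WT libraries and 386, 407 and 411 CPM in mutant libraries. The highest mutant library reached the lowest WT library. The means of ybx1, 432 ± 33.4 and 402 ± 13.3 CPM (SD, n = 3 each), differed by less than the SD of WT, with a log2 fold change of -0.10 (SE 0.091, 95% confidence interval -0.32 to 0.11, edgeR adjusted p = 0.59).

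**Figure D3:**
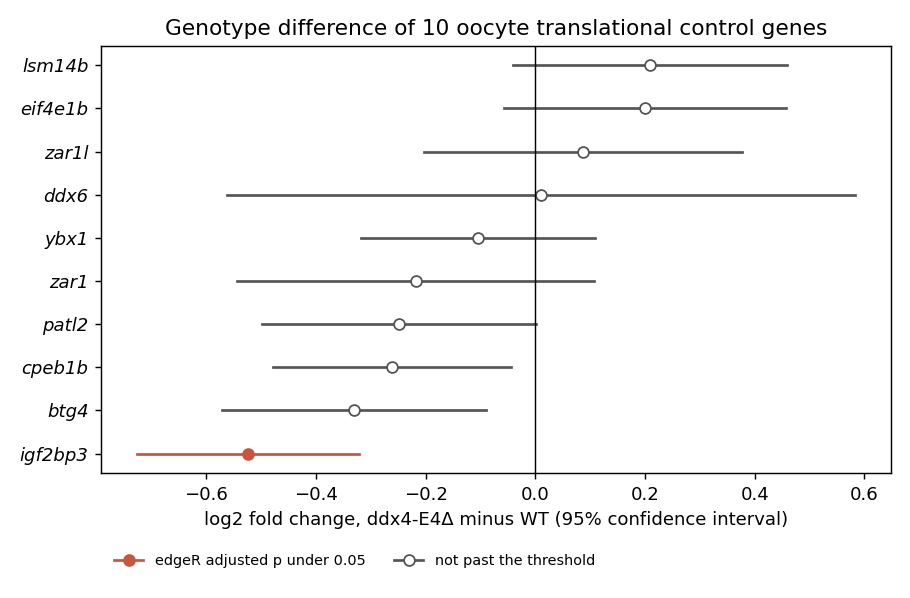
Log2 fold change of ddx4-E4Δ against WT (x axis) with its 95% confidence interval from edgeR for the 10 genes. Only igf2bp3, at -0.52, is called at an adjusted p under 0.05, and the intervals of btg4 and cpeb1b also lie below 0.

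Across the 10 genes the coefficient of variation within a genotype ran from 2.93% to 22.3%, and the SD was larger in the mutant for 5 genes and in WT for 5. Among the mutant libraries, 7 genes (zar1, zar1l, ybx1, patl2, lsm14b, btg4 and eif4e1b) were lowest in replicate 1, and 7 genes were highest in replicate 3. By contrast, igf2bp3 and cpeb1b were lowest in replicate 3. These orders hold after TMM scaling, and the TMM factor was 1.079 in mutant replicate 1, with 1 and 1.007 in replicates 2 and 3. Scaled by column totals alone, ybx1 and patl2 were not lowest in mutant replicate 1. With that scaling, lsm14b and eif4e1b of mutant replicate 1 also lay above all WT libraries. The oocyte marker list had its lowest mutant sum in replicate 1 too, 15376 CPM, with 17803 CPM in replicate 2 and 20400.1 CPM in replicate 3. Its part in the spread of these genes was not tested.

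A ratio of 2 genes within a library does not depend on how libraries are scaled, so the 45 ratios between the 10 genes were also compared. In 18 of them the genotypes did not overlap, which is 40% against 28.5% of all pairs of the 17472 tested genes with a count in each library. These shares are not of like sets, since the wider pairs include genes of any level. All of the 10 genes but ddx6 had at least 6028 estimated counts per library, and no ratio with ddx6 was among the 18. Pairs of like abundance were not compared. The 45 pairs share genes and are not independent. The ratios named next were chosen after their values were seen and are given as a description. The ratio of lsm14b to btg4 was 1.88, 1.96 and 2.02 in WT libraries and 2.87, 2.83 and 2.82 in mutant libraries. It varied little within a genotype, 1.95 ± 0.071 and 2.84 ± 0.029 (SD, n = 3 each), although the levels of both genes varied among the mutant libraries. The ratio of btg4 to eif4e1b was 1.95, 1.94 and 1.98 in WT libraries and 1.36, 1.42 and 1.30 in mutant libraries. Mutant replicate 1, in which btg4, lsm14b and eif4e1b were all lowest, did not stand apart in these ratios.

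The ratio of zar1 to eif4e1b was 8.32 ± 0.12 in WT libraries and 6.22 ± 0.35 in mutant libraries (SD, n = 3 each). Between the paralogs, zar1 to zar1l was 1.25, 1.30 and 1.37 in WT libraries and 0.967, 1.14 and 1.05 in mutant libraries. The genotypes were apart in this ratio, while zar1 and zar1l alone each overlapped. The ratio of igf2bp3 to lsm14b was 0.214, 0.215 and 0.198 in WT libraries and 0.148, 0.126 and 0.107 in mutant libraries. In these 5 ratios, genes with a negative log2 fold change (zar1, btg4 and igf2bp3) were set against genes with a positive one (zar1l, lsm14b and eif4e1b).

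**Figure D4:**
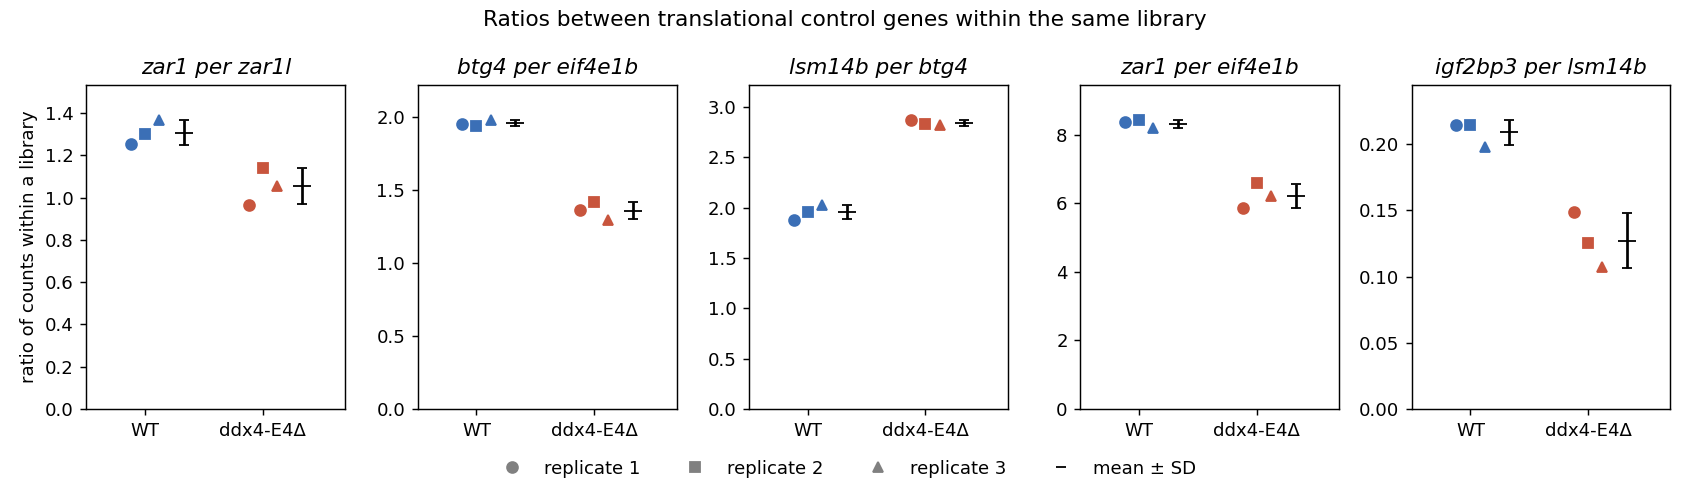
Ratio of 2 genes within a library (y axis, linear, from 0) for 5 pairs chosen after their values were seen, in WT (blue) and ddx4-E4Δ (red) ovaries, with a marker shape per replicate and the mean ± SD of 3 libraries in black. The genotypes do not overlap in these panels, and lsm14b to btg4 goes from 1.95 to 2.84.

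Paralogs of the 10 genes were examined next. Of 24 listed names, 22 were found and 21 tested. Beside 4.57% of all genes, 1 of the 21 was called, as lower. This was tob1b (ENSDARG00000021372), which belongs to the BTG/TOB family of btg4, whose proteins link mRNAs to deadenylases. WT libraries held 88.2, 95.7 and 91.1 CPM of tob1b, and mutant libraries held 57.4, 61.4 and 63.6 CPM. The genotypes lay far apart beside their spread, and the log2 fold change was -0.59 (SE 0.083, 95% confidence interval -0.79 to -0.40, edgeR adjusted p = 0.012). The call of tob1b was lost with the replicate block (edgeR adjusted p = 0.0518) and without WT replicate 2 (0.0511) or mutant replicate 2 (0.0510).

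The other relatives of btg4 did not pass the test. The log2 fold change was -0.28 for btg2 (edgeR adjusted p = 0.27), -0.08 for btg3, 0.23 for btg1, 0.19 for tob2 and 0.23 for tob1a, listed as TOB1 (ENSDARG00000032619). For btg1, mutant replicate 1 stood apart at 35.8 CPM, with 20.6 to 24.6 CPM in the 5 other libraries. Among the relatives of igf2bp3, igf2bp1 had 9.89 ± 2.87 CPM in WT and 8.86 ± 1.57 CPM in mutant libraries, and IGF2BP2 (ENSDARG00000003421) had 30.9 ± 3.68 and 27.0 ± 1.62 CPM (SD, n = 3 each). Neither was called (edgeR adjusted p = 0.79 and 0.47), nor was igf2bp2b, which averaged under 1 CPM (log2 fold change 0.56, edgeR adjusted p = 0.85), and the difference from igf2bp3 was not tested.

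Other forms of the cap-binding protein were not called either. The log2 fold change was -0.02 for EIF4E (ENSDARG00000077012), -0.07 for eif4eb, 0.06 for eif4e1c and -0.08 for eif4e3, and 0.39 for eif4e2, a weak cap binder (edgeR adjusted p = 0.16). Of the CPEB family, cpeb3 had 2.28 ± 0.47 CPM in WT and 3.87 ± 0.51 CPM in mutant libraries (SD, n = 3 each), a log2 fold change of 0.76 (SE 0.30, edgeR adjusted p = 0.21). The log2 fold change was -0.08 for cpeb4a, listed as CPEB4, and -0.21 for cpeb4b, and -0.53 for cpeb1a, which averaged under 1 CPM. The relatives of lsm14b and patl2 that act in P-bodies of many cells had values of 0.07 for lsm14aa, 0.07 for LSM14A (ENSDARG00000100553) and -0.06 for patl1.

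**Figure D5:**
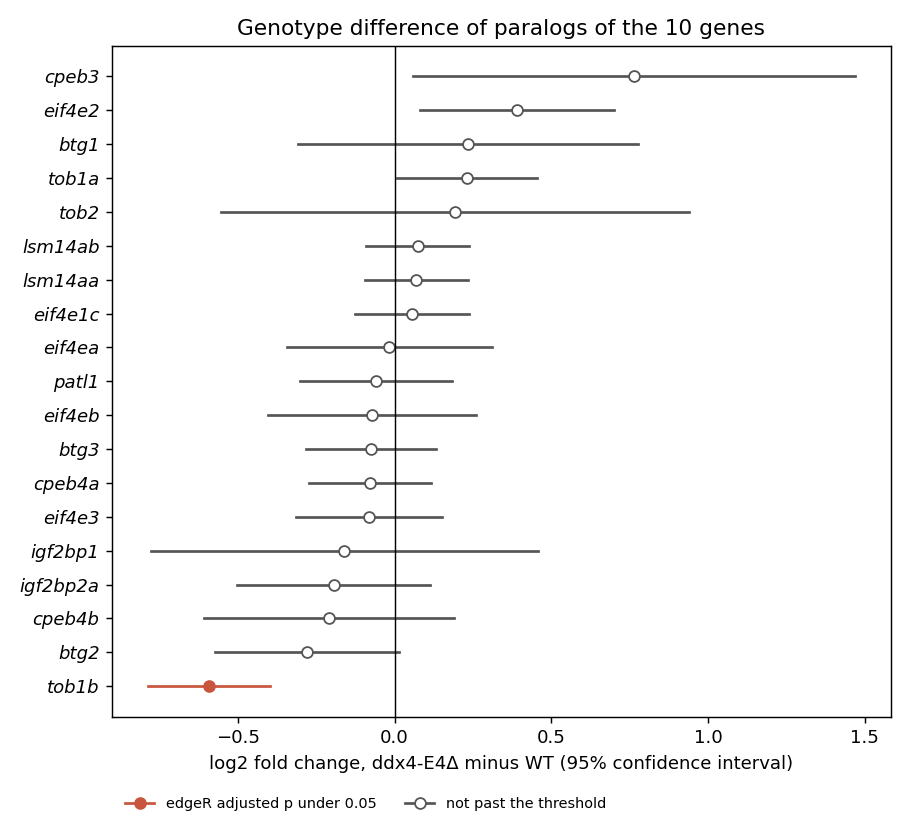
Log2 fold change of ddx4-E4Δ against WT (x axis) with its 95% confidence interval from edgeR for the 19 tested paralogs with a mean of at least 1 CPM, EIF4E, IGF2BP2 and LSM14A standing as eif4ea, igf2bp2a and lsm14ab. Only tob1b, at -0.59, is called at an adjusted p under 0.05.

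A wider set of translational control genes, the paralogs included, held 128 tested genes. Of these edgeR called 1, tob1b, while it called 4.57% of all genes. Of the set, 51 genes were higher and 77 lower, with a median log2 fold change of -0.08, a balance that became 65 and 63 with total-count scaling. An unadjusted p under 0.05 was found for 19 genes, or 14.8%, below the share of all genes given above. The CPM did not overlap in 28.9% of the set, near the share of the whole table. DESeq2 called 9 of the 128 genes, while it called 12% of all genes. Of these 9, 3 were higher (ddx61, syncrip and nanos3) and 6 lower (tob1b, eif4a2, caprin2, eif4g3a, EIF4G2 and CAPRIN1).

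In each functional group of the set the gene of lowest p was looked at, and none passed edgeR's test. Among the genes for poly(A) addition and binding it was cpsf1, a subunit of the complex that recognizes the polyadenylation signal, with a log2 fold change of -0.37 (edgeR adjusted p = 0.14). In this group 10 of 13 genes were lower, or 9 with total-count scaling. Among the deadenylase genes the lowest p was that of cnot10, a subunit of CCR4-NOT, at -0.25 (edgeR adjusted p = 0.21). Among the listed genes for translation initiation and its control it was that of EIF4G2 (ENSDARG00000020377), a scaffold of initiation, at -0.42 (edgeR adjusted p = 0.061).

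For decapping and P-bodies the gene of lowest p was ddx61, a relative of ddx6. Its WT libraries held 109.9, 100.4 and 99.3 CPM and its mutant libraries 131, 119 and 134 CPM, without overlap, and the log2 fold change was 0.31 (SE 0.083, edgeR adjusted p = 0.085). Unlike ddx6, it was higher in each mutant library than in any WT library. Among the packaging genes the lowest p was that of CAPRIN1 (ENSDARG00000054272), a protein of stored and stress granule mRNAs, at -0.40 (edgeR adjusted p = 0.083). Among the other oocyte RNA-binding proteins it was that of nanos3, a germ cell translational repressor, at 0.73 (edgeR adjusted p = 0.13).

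A list of mRNAs taken to be stored and translated at oocyte maturation was examined next. Whether the proteins described above bind or control these mRNAs in zebrafish was not tested. Counts give RNA levels and do not show translation or poly(A) tail length. Of 12 genes tested, edgeR called 0, while it called 4.57% of all genes. In edgeR, 2 of the 12 had an unadjusted p under 0.05, ccna1 and fbxo43. That is 16.7%, below the 19.9% of all genes. WT libraries held 855, 1152 and 1073 CPM of ccna1, a cyclin A of oocytes and early embryos, and mutant libraries held 609, 701 and 705 CPM. The genotypes of ccna1 did not overlap, and its log2 fold change of -0.61 (SE 0.14, edgeR adjusted p = 0.052) lay close to the threshold. It was called with DESeq2, with counts divided by 4, where 6.91% of all genes were called, and with edgeR's robust option, where 4.66% were.

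The remaining maturation mRNAs were nearer to 0. For fbxo43, which encodes an inhibitor of the anaphase-promoting complex, the log2 fold change was -0.28 (edgeR adjusted p = 0.24). For mos, which encodes a kinase of oocyte maturation, libraries averaged 237 ± 9.89 CPM in WT and 238 ± 40.3 CPM in the mutant (SD, n = 3 each). The cyclin B genes ccnb1 and ccnb2 had log2 fold changes of -0.09 and 0.05 (edgeR adjusted p = 0.79 and 0.85). For the kinase gene wee2, libraries averaged 381 ± 17.6 CPM in WT and 366 ± 31.8 CPM in the mutant (SD, n = 3 each). Its log2 fold change was -0.06 (edgeR adjusted p = 0.80), while the paper lists wee2 among its downregulated genes. The cause of this difference was not tested.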

How the data were processed

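Total RNA from 3 WT and 3 ddx4-E4Δ ovary samples was sequenced as paired reads. Per the study's methods, the authors used Cutadapt for trimming, STAR for mapping to GRCz11 and featureCounts for counting, while the submitters' processing notes name HISAT2, StringTie and RSEM. Strand, annotation and multi-mapped reads are not given in the sources used here, so overlapping or near-identical genes may share reads. The values deposited by the authors were whole numbers with different totals per library. Their commonest nonzero value was 4 in all 6 libraries, so the authors' values were not 1 unit per fragment and were used as estimated counts, how that unit arose not being given in the sources used here.

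Symbols came from a table of Ensembl identifiers that covered 29200 genes. After filterByExpr and TMM scaling, edgeR 4.0.16 (R 4.3.3) gave quasi-likelihood tests, with Benjamini-Hochberg adjustment over 19353 genes. DESeq2 1.42.0, other scalings and filters, counts divided by 4, the robust option, a replicate block and leaving out each library were alternatives. Scripts were tested on simulated data, with a limit on false calls set for edgeR and none for DESeq2. The genes and lists were chosen with earlier results of these data known. Named were the 10 genes, tested paralogs and, of each other list, called genes or the gene of lowest p, the marker lists by their sums and called genes. Further genes were named, and marker sums without called genes added, after their values were seen. CPM is not divided by length, so levels of the 10 genes were not ranked against one another. Marker sums, and the marker genes named as most abundant in them, weigh genes by CPM. Sequences and coordinates of the genes are not given here.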

Additional observations from a re-analysis of the deposited data

How the results depend on the processing

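The number of genes called was 884, against 2323 with DESeq2, 325 with the replicate number as a block, and 380 to 553 with 1 library left out. Under total-count scaling the median over all genes went from 0.014 to 0.096 (log2), and the balance turned from 379 higher and 505 lower to 533 higher and 411 lower. Of the 10 genes, 1 was called, against 3 with DESeq2, 0 with the replicate block, where igf2bp3 had an edgeR adjusted p of 0.062, and 0 to 1 with 1 library left out, the call being kept only without mutant replicate 3. Over all alternatives the adjusted p of igf2bp3 ran from 2.22e-05 to 0.070, that of btg4 from 0.049 to 0.32 and that of cpeb1b from 0.020 to 0.39. Of the wider set, 1 gene was called, against 2 with total-count scaling, 9 with DESeq2, 0 with the replicate block and 0 to 1 with 1 library left out. Without mutant replicate 2 that gene was LSM2 (ENSDARG00000070867), at under 1 CPM, and not tob1b. Of the maturation mRNAs 0 were called, against 1, ccna1, with DESeq2, with counts divided by 4 and with the robust option, and 0 to 1 with 1 library left out. The direction turned for ddx6 with upper-quartile scaling (-0.0087), without WT replicate 2 (-0.15) and without mutant replicate 3 (-0.18), and for zar1l without mutant replicate 3 (-0.014), the values with 1 library left out running from -0.18 to 0.18 for ddx6 and from -0.014 to 0.16 for zar1l. The cause was not tested.

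Deviations from the genotype mean were weakly correlated across genes between libraries of the same replicate number, at -0.074, 0.083 and -0.018 for numbers 1, 2 and 3. With 3 libraries a genotype, these values cannot show whether such libraries share more than a number, which is not given in the sources used here. Among the translational control genes and the maturation mRNAs, the block changed only the calls of igf2bp3 and tob1b (edgeR adjusted p = 0.052). Whether it changed the calls of the marker genes sycp1, stag3, gdf9 and cyp11a1 was not tested. With 3 libraries a genotype, log2 differences of about 0.2 to 0.3 in these abundant genes did not pass the threshold with edgeR, and ddx6 had an SE of 0.24, or 0.19 with the replicate block.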

Other observations

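In several gene pairs of the translational control lists, the paralogs had log2 fold changes of opposite sign, and these pairs were chosen after their values were seen. EIF4G2 (ENSDARG00000020377) had 488, 431 and 430.4 CPM in WT and 324, 319 and 366 CPM in mutant replicates 1, 2 and 3. Its paralog of the same symbol, EIF4G2 (ENSDARG00000057167), had 444, 427 and 426 CPM in WT and 477, 518 and 476 CPM in the mutant. Neither gene overlapped between the genotypes, and the log2 fold changes were -0.42 and 0.18 (edgeR adjusted p = 0.061 and 0.28). In the TOB pair, tob1b was called as lower at -0.59, while tob1a, listed as TOB1, was at 134, 152 and 122 CPM in WT and 155, 164 and 159.8 CPM in the mutant, higher in each mutant library than in any WT library (edgeR adjusted p = 0.24). For the deadenylase pair, CNOT6 (ENSDARG00000008255) had 175 ± 20.1 and 146 ± 1.62 CPM and cnot6b had 20.2 ± 5.53 and 27.6 ± 0.60 CPM in WT and mutant ovaries (SD, n = 3), with log2 fold changes of -0.26 and 0.45 (edgeR adjusted p = 0.21 and 0.29). How the counting shared reads between such paralogs is not given in the sources used here, and the difference within a pair was not tested.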
